A study of Homo sapiens with 12 samples.

Results

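The comparison described here set 3 arrays labelled MMS1 with a miR-16 sponge against 3 arrays labelled MMS1 with a control sponge. These 6 arrays were taken by their sample titles from a series of 12. The other 6 carried the same sponge and control groups in RPMI8226. Both lines are labelled as multiple myeloma, a cancer of plasma cells. By the labels, the control group had received lentivirus with GFP and a mock sponge, and the other group lentivirus with GFP and a sponge that binds miR-16. Both groups were sorted by flow cytometry, expanded and lysed at the same time after growth in parallel flasks. The sponge group is called miR16 KO in its titles, knock down in its characteristics and siRNA treated in its descriptions, and the labels name no edited allele. The labels describe sorted, transduced cells and do not say whether the 3 arrays of a group came from separate cultures, so all p-values here measure only the spread between arrays. The study aimed to imitate the loss of miR-16 that accompanies deletion of the long arm of chromosome 13 in myeloma and to find genes that rise with it.

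A microRNA guides Argonaute proteins to messenger RNAs through its seed, a short stretch near its 5′ end, and the targeted transcripts are translated less and degraded sooner. MiR-16 and its relatives with the same seed restrain cyclins, cyclin-dependent kinases and survival genes, and loss of the miR-15a and miR-16-1 locus is known from chronic lymphocytic leukaemia and myeloma. A sponge offers many decoy sites and so can occupy every microRNA that shares the seed.

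Of 2370 human mature microRNA names in the RefSeq table (GRCh38.p14), 7 held the seed of miR-16-5p at bases 2 to 8. They are shown 5′ to 3′ because decoy sites that pair with this seed could bind any of them, and capitals mark the seed. The sponge's own sites were not used here, and the arrays did not measure mature microRNAs.
hsa-miR-16-5p: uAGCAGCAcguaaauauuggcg
hsa-miR-15a-5p: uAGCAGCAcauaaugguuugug
hsa-miR-15b-5p: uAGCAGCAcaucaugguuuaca
hsa-miR-195-5p: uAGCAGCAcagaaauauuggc
hsa-miR-424-5p: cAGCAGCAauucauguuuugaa
hsa-miR-497-5p: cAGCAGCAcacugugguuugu
hsa-miR-6838-5p: aAGCAGCAguggcaagacuccu
With the seed included, miR-195-5p matched miR-16-5p at 19 positions and miR-6838-5p at 9, counted from the 5′ end without gaps. MiR-16-5p is made from 2 genes, MIR16-1 at chr13:50049027-50049048 on the minus strand and MIR16-2 at chr3:160404754-160404775 on the plus strand. Their host genes are DLEU2 and SMC4. DLEU2 read 6.72, 6.79 and 6.99 on the control arrays and 6.75, 6.55 and 6.52 on the miR-16 sponge arrays, as log2 signals. The groups overlapped, and the difference of -0.23 did not pass (adjusted p = 0.291). SMC4, a condensin subunit, read 8.63, 8.72 and 9.0 against 9.35, 9.09 and 9.03 (difference 0.37, adjusted p = 0.0701). Neither value reports on the sponge, which acts on the mature microRNA.

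The labelled cell type was checked against its markers. Of 24 measured plasma cell markers, 14 lay below the median gene and 5 above the upper quartile, by the mean of the 6 MMS1 arrays. TNFRSF17, the receptor BCMA, read 4.52, 4.69 and 4.70 on the control arrays, close to the lower bound of 4 that the deposited values have. JCHAIN, the joining chain of antibodies, read 4.35, 4.39 and 4.71 there. SDC1, the surface antigen CD138, was brighter at 8.73, 8.64 and 8.60. Red cell precursor genes were bright instead. HBE1, the embryonic epsilon globin, read 14.40, 14.39 and 14.38 on the control arrays and 14.13, 14.20 and 14.22 on the sponge arrays. GATA1, the erythroid transcription factor, read between 9.27 and 9.84 on the 6 arrays. Of 32 measured erythroid markers, 20 lay above the upper quartile gene. The values therefore go against the plasma cell label, and the arrays are called here by the line name that they carry. Several red cell genes were bright on the RPMI8226 control arrays too, with means of 13.01 for HBZ, 10.55 for HBB, 10.53 for RHAG and 9.3 for ALAS2. CA1 and CA2 were dimmer there, at 5.99 and 5.59. The label of RPMI8226 was not checked in the same way.

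Array medians of log2 signal lay between 5.8 and 5.83 in MMS1, and arrays of a group correlated at 0.9743 or more over all probe sets. Sponge replicate 1 had an 18S ribosomal control signal of 7.84, against 9.98 to 11.14 on the other 5 MMS1 arrays. The 3′ minus 5′ difference of the ACTB control probes, a measure of RNA integrity and labelling, was 0.16, 0.21 and 0.08 on the control arrays and 0.49, 0.32 and 0.23 on the sponge arrays. These groups did not overlap, so this measure moved with the sponge, and its part in the results was not tested. For GAPDH the same difference lay between -0.03 and 0.12.

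In MMS1 the sponge and control arrays differed widely. The adjusted p-values were computed with limma over 54613 probe sets by the Benjamini-Hochberg method, and genes with an adjusted p under 0.05 are called higher or lower, or said to have risen or fallen. A change is the mean log2 signal of the sponge arrays minus that of the control arrays, so 1 is a fold of 2. Of the probe sets, 5635 were called, or 10.3%. Of 19775 genes, each read by its brightest probe set, 2455 were called, or 12.4%: 858 rose (4.34%) and 1597 fell (8.08%). Without control replicate 2 the higher count was 565, and without control replicate 1 or 3 the lower count was 1040 or 1009. Most calls were small, with a median absolute change of 0.56 over the called genes, against a median of -0.04 over all genes. By over 1, 142 genes rose and 167 fell. The largest changes ran upward, since 36 genes rose by over 2 against 24 that fell, and 13 rose by over 3 against 4. In 6149 genes, or 31.1%, the 3 sponge arrays lay all on one side of the 3 control arrays, and these held 2448 of the called genes. Of 1568 called genes with more than 1 probe set, 685 had another probe set called the same way and 32 had one called the opposite way. In bulk samples such as these, fewer cells of a type and less RNA per cell cannot be told apart.

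**Figure D1:**
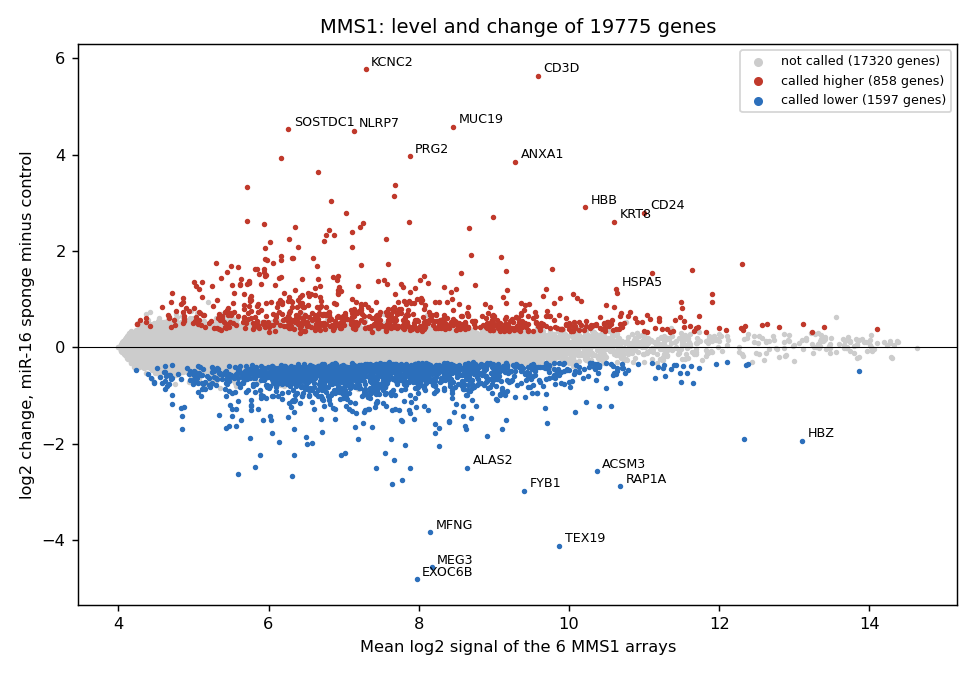
Each point is 1 of 19775 genes in MMS1, with the mean log2 signal of the 6 arrays on the x axis and the log2 change (sponge minus control) on the y axis. Red marks 858 genes called higher and blue 1597 called lower, and the points furthest from 0 are the rises of KCNC2 (5.77) and CD3D (5.64) and the falls of EXOC6B (-4.82) and MEG3 (-4.57).

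The largest rise was that of KCNC2, a voltage-gated potassium channel of neurons on chromosome 12, which read 4.29, 4.46 and 4.47 on the control arrays and 10.13, 10.18 and 10.22 on the sponge arrays. Its control arrays lay near the lower bound and its sponge arrays among the bright genes, a change of 5.77 (95% interval 5.49 to 6.05, adjusted p = 2.44e-11), although only 1 of its 2 probe sets was called. CD3D, which signals for the T cell receptor, read 6.88, 6.78 and 6.66 against 12.58, 12.37 and 12.29, a change of 5.64 (5.37 to 5.90). The groups lay far apart beside an SD of 0.11 and 0.15 within them. SOSTDC1, a secreted antagonist of BMP signals, was listed at 4.0 on each control array and read 8.72, 8.39 and 8.48 with the sponge. Its controls sat at the lower bound, so the difference of 4.53 does not measure a fold.

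Further down the list, CALB1, the calcium-binding protein calbindin, read 4.87, 4.86 and 4.80 on the control arrays and 8.74, 8.35 and 8.35 on the sponge arrays (change 3.64, adjusted p = 5.57e-10, both probe sets). PRDM11, a member of a family of zinc finger methyltransferase-like regulators, read 5.98, 6.12 and 5.91 against 9.45, 9.18 and 9.45 (change 3.36). Only 1 of its 6 probe sets was called, so the rise is that of a single probe set. USP22, a ubiquitin protease of the SAGA complex, rose by 3.15 on 1 of 4 probe sets, from 6.18, 6.33 and 5.76 to 9.47, 9.18 and 9.06. ALDH1A1, which makes retinoic acid from retinal, read 5.16, 5.25 and 5.52 against 8.67, 8.14 and 8.23 (change 3.04, adjusted p = 1.85e-08). ZNF491, a zinc finger gene, went from 4.0, 4.0 and 4.15 to 7.73, 7.14 and 7.26. Here too the controls were at or near the bound, and the fitted change of 3.33 is no measured fold. CD24, a small membrane glycoprotein, had the most called probe sets among the 20 largest rises, with 6 of 6 higher, although its brightest can read related sequences. It read 9.65, 9.53 and 9.65 against 12.43, 12.34 and 12.41, a change of 2.79 (2.58 to 3.0, adjusted p = 1.06e-09). TSPAN13, a tetraspanin, rose by 2.71, from 7.55, 7.54 and 7.80 to 10.59, 10.19 and 10.23. IGFBP2, which binds insulin-like growth factors, read 6.60, 6.44 and 6.65 against 9.32, 9.14 and 9.04 (change 2.60). KRT8, a keratin of simple epithelia, rose by the same 2.60, although its probe set can also read related sequences. The uncharacterised LOC105371622 rose by 2.63 on 1 of 2 probe sets, and the other changed by -0.42.

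IL20RA, a subunit of the receptors for IL-20 family cytokines, passed with groups that only just separated. Its control arrays read 8.25, 4.32 and 4.34 and its sponge arrays 8.45, 8.51 and 8.30. Control replicate 1 lay beside the sponge arrays and the other controls near the lower bound, with a change of 2.78 (1.20 to 4.37, adjusted p = 0.0283). The call was lost without control replicate 2 or 3 or without any 1 of the sponge arrays (adjusted p between 0.0662 and 0.122).

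The largest fall was that of EXOC6B, a subunit of the exocyst that tethers secretory vesicles, which read 10.40, 10.36 and 10.37 on the control arrays and 5.34, 6.13 and 5.21 on the sponge arrays. Both of its probe sets were called and the groups lay far apart, with a change of -4.82 (-5.27 to -4.36, adjusted p = 1.07e-08). MFNG, a glycosyltransferase that modifies Notch receptors, read 10.13, 9.99 and 10.10 against 6.34, 6.08 and 6.28 (change -3.84, adjusted p = 1.29e-08). FYB1, an adaptor protein of immune cells and platelets, fell on 5 of 5 probe sets, from 10.84, 10.88 and 10.95 to 7.88, 7.86 and 8.0. RAP1A, a small GTPase of adhesion signalling, gave mixed probe sets, with 2 lower and 1 higher of 4. Its brightest, which can read related sequences, went from 12.05, 12.16 and 12.18 to 9.10, 9.33 and 9.28. KIR2DS5, from a family of near-identical receptors of natural killer cells, fell by 2.84, and the family member that this probe set read is uncertain.

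PLA2G2A, a secreted phospholipase, read 9.22, 8.99 and 9.24 against 6.31, 6.52 and 6.36 (change -2.76, adjusted p = 1.16e-07). CHMP6, of the ESCRT-III membrane machinery, fell by 2.67, from 7.75, 7.70 and 7.51 to 4.97, 5.05 and 4.92. MEIOC, needed for meiotic prophase, read 6.91, 6.64 and 7.22 against 4.0, 4.83 and 4.02, on 1 of 5 probe sets, and its sponge arrays lay at or near the bound. TEX11, an X-linked gene of meiotic recombination, fell by 2.20 on 3 of 3 probe sets, the brightest of which can read related sequences. PKLR, the pyruvate kinase of liver and red cells, fell by 2.50 on 3 of 3 probe sets, from 9.29, 9.07 and 9.05 to 6.71, 6.46 and 6.72. ALAS2, the first enzyme of haem synthesis in red cells, fell by 2.51, and CA1, a red cell carbonic anhydrase, fell by 2.51. Each was called on 1 of 2 probe sets, and the others changed by -0.2 (ALAS2) and -0.3 (CA1). ACSM3, an acyl-CoA synthetase of mitochondria, read 11.69, 11.65 and 11.62 against 9.13, 9.11 and 8.99 (change -2.58). DNAJC15, a mitochondrial co-chaperone, fell by 2.34, and NSG1, a vesicle protein of neurons, fell by 2.23 on 1 of 3 probe sets, one that can read related sequences. The non-coding LINC00462 and SNHG24 fell by 2.49 and 2.24.

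**Figure D2:**
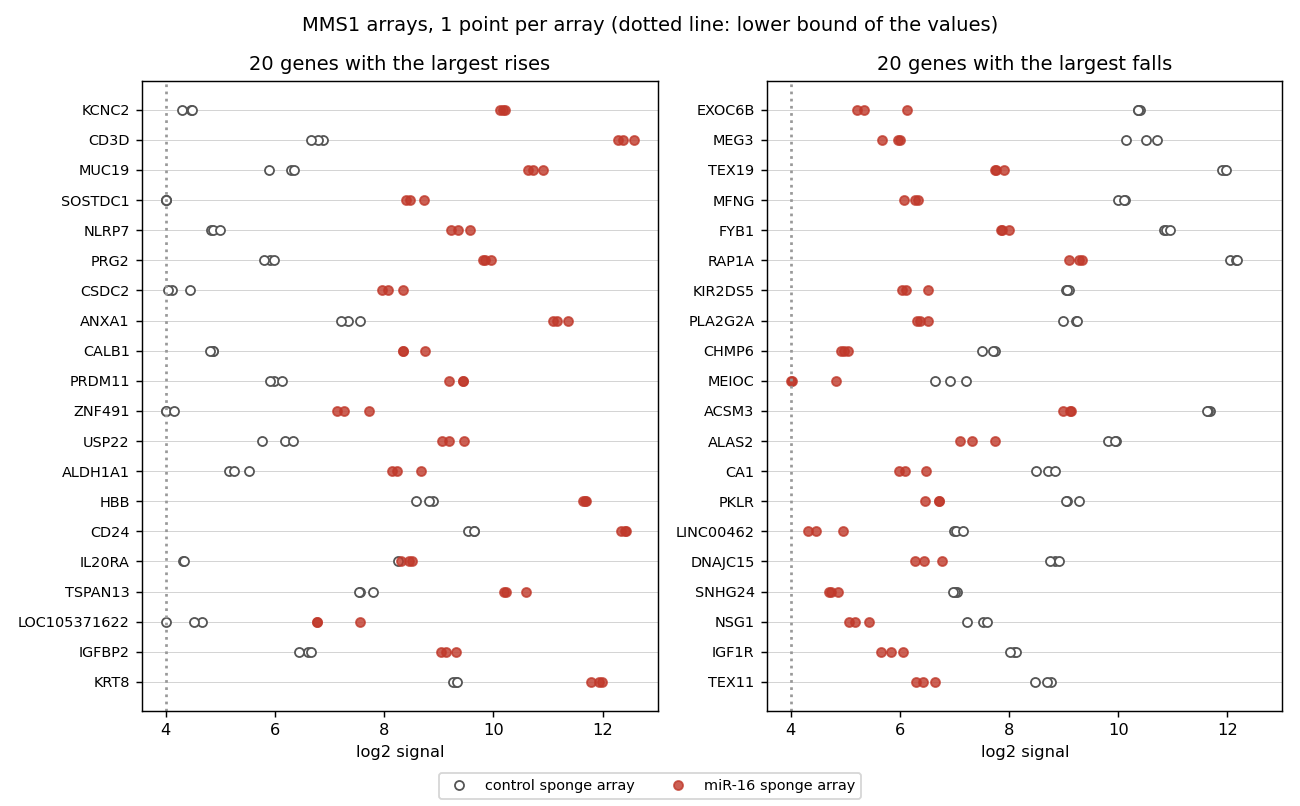
Each row is a gene among the 20 largest rises (left) and the 20 largest falls (right) in MMS1, and each point is the log2 signal of 1 array, open for control and filled for miR-16 sponge. In every row the groups of 3 lie apart, and IL20RA stands out by 1 control array at 8.25 next to sponge arrays from 8.30 to 8.51.

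The study sought genes that rise when miR-16 is lost, and a list of published targets was chosen here to describe. Of 45 measured genes on a list of published miR-16 targets, 4 rose and 11 fell, and their median change was 0.00 against -0.04 over all genes. The share that fell, 24.4%, stood beside 8.08% over all genes, and the share that rose, 8.89%, beside 4.34%. Calls were more common among brighter genes: of 12188 genes in chromosome order with a mean log2 signal above 6, 11.6% fell and 5.96% rose. This limits each comparison of a bright list with all genes, and 24 of the 45 targets lay above the upper quartile gene. The falling members numbered 7 without control replicate 1 or 3 or sponge replicate 2 or 3. ANLN, an actin-binding protein of cell division, read 7.23, 7.33 and 7.41 on the control arrays and 8.86, 8.22 and 8.30 on the sponge arrays (change 1.14, adjusted p = 0.000327). Both of its probe sets rose and the groups did not overlap. JUN, part of AP-1, read 7.51, 7.43 and 7.63 against 8.55, 8.44 and 8.63, a rise on 2 of 4 probe sets. VEGFA, which drives vessel growth, rose on 4 of 4 probe sets, from 9.87, 9.80 and 9.97 to 10.61, 10.23 and 10.37. SERPINE2, a protease inhibitor, rose by 0.64 on 1 of 2 probe sets, and lost its call without control replicate 3 (adjusted p = 0.0515). The mean over its probe sets changed by 0.23 (adjusted p = 0.221).

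The falling targets included receptors and kinases of growth signals. IGF1R, the receptor for insulin-like growth factor 1, read 8.10, 8.13 and 8.01 against 6.06, 5.84 and 5.66 (change -2.23, adjusted p = 7.42e-08). It fell on 4 of 5 probe sets, and it was also among the 20 largest falls of all genes. The related receptor gene INSR fell by 0.40, and lost its call without control replicate 1 or 2 or sponge replicate 2 or 3 (adjusted p between 0.0881 and 0.118). The mean over its probe sets changed by -0.16 (adjusted p = 0.177). ETS1, a transcription factor, gave opposite probe sets. Its brightest read 9.21, 9.15 and 9.09 against 7.72, 7.94 and 7.74, a second one rose, and the mean over its 3 probe sets changed by -0.14 (adjusted p = 0.465). IKBKB, a kinase that activates NF-kB, read 6.32, 6.51 and 6.43 against 5.32, 4.41 and 5.63, with a wide spread among the sponge arrays and 1 of 3 probe sets called. PURA, a nucleic acid binding protein, fell by 0.69 on 3 of 5 probe sets, and CDK6, a G1 kinase, fell by 0.55 on 2 of 7.

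Smaller falls among the targets were less secure. ATG9A, a membrane protein of autophagy, fell by 0.52, and EIF4E3, a cap-binding factor, fell by 0.53 but not without control replicate 3 (adjusted p = 0.0536). CCND2, a D-type cyclin, and UNG, a DNA glycosylase, fell by 0.46 and 0.42. Neither passed without control replicate 1 or 3 or sponge replicate 2 or 3 (adjusted p between 0.06 and 0.0782 for CCND2 and between 0.0587 and 0.0977 for UNG). The mean over the probe sets of CCND2 changed by -0.24 (adjusted p = 0.113). HMGA1, a chromatin protein, fell by 0.39, a call that ended when 1 of 8 arrays was removed, namely any of the 3 MMS1 controls, MMS1 sponge replicates 2 and 3, RPMI8226 controls 2 and 3 and RPMI8226 sponge replicate 2 (adjusted p between 0.0502 and 0.129). Of the best known targets, 4 gave no call. BCL2, the survival gene, read 6.63, 6.68 and 6.73 against 6.52, 6.50 and 6.61 (change -0.14, -0.35 to 0.08, adjusted p = 0.476). For CCND1 the change was -0.05 (-0.30 to 0.21), for CCNE1 it was -0.03 (-0.28 to 0.21), and for MCL1 it was -0.14 (-0.34 to 0.06). These intervals leave out rises of 0.30 or more for all 4 genes. Among 17 microRNA processing genes 1 rose (5.88%, beside 4.34% of all genes) and 2 fell (11.8%, beside 8.08%). Both shares lay close to the 5.96% and 11.6% of genes with a mean log2 signal above 6. MOV10, an RNA helicase of silencing complexes, read 7.88, 7.78 and 8.01 against 7.16, 6.90 and 6.94 (change -0.89, adjusted p = 0.000147). The rise of PRKRA by 0.35 lost its call on removal of any 1 of 10 arrays. The fall of TNRC6B by 0.59 lost its call without any 1 of the 3 MMS1 controls.

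Many genes of DNA replication fell, and none on the list rose. Of 34 measured members 16 fell (47.1%, beside 8.08% of all genes) and 0 rose (beside 4.34%), and the median change was -0.35. Against the mean of the controls, the median member stood at -0.28, -0.42 and -0.45 on the 3 sponge arrays. TK1, which salvages thymidine, read 10.25, 10.13 and 10.18 against 9.12, 9.24 and 9.29 (change -0.97, adjusted p = 1.59e-05). CDC45, a part of the replicative helicase, read 9.44, 9.45 and 9.48 against 8.59, 8.51 and 8.41 (change -0.95, adjusted p = 2.73e-05). Of 32 mitosis genes 7 fell (21.9%) and 0 rose, with a median of -0.18. That count was 4 without control replicate 1 or 3 and 11 without sponge replicate 1. ASPM, a spindle pole protein, fell by 0.70, and AURKA, a mitotic kinase, fell by 0.65 on 2 of 3 probe sets, from 8.44, 8.34 and 8.42 to 8.09, 7.54 and 7.61. Of 20 G1 cyclins, kinases and inhibitors 1 rose (5.0%) and 5 fell (25.0%). CDK4 read 10.34, 10.17 and 10.29 against 9.57, 9.52 and 9.49 (change -0.74). CDKN1A, the inhibitor p21, was the riser, from 6.45, 6.47 and 6.64 to 7.19, 7.07 and 7.08. Markers of red cell precursors also fell in MMS1, with 16 of 32 called lower, and the part of either change in the other was not tested.

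Genes of the unfolded protein response, which raises folding capacity in the endoplasmic reticulum, rose more often than they fell. Of 27 measured members 9 rose (33.3%, beside 4.34% of all genes) and 2 fell (7.41%, beside 8.08%), and the median change was 0.23. By array the median member stood at 0.44, 0.19 and 0.12 above the control mean, so sponge replicate 1 was the highest. HSPA5, the chaperone BiP, read 10.07, 10.03 and 9.98 against 11.49, 11.14 and 11.06 (change 1.20, 0.96 to 1.45, adjusted p = 1.62e-05), on 1 of 2 probe sets. DDIT3, the stress factor CHOP, read 9.05, 8.97 and 9.05 against 9.57, 9.73 and 9.79 (change 0.67, adjusted p = 0.000524). Of 28 genes of ATF4 and amino acid supply 5 rose and 5 fell (17.9% each). SESN2, which senses leucine, read 8.04, 7.75 and 7.80 against 9.03, 9.01 and 9.0, and GARS1, a tRNA synthetase, rose by 0.65. ATF5, an ATF4-related factor, moved the other way, from 7.37, 7.46 and 7.52 to 6.22, 5.90 and 5.77, on 2 of 4 probe sets. SLC7A1, a carrier of cationic amino acids, fell by 0.70. Of 18 heat shock chaperones 0 rose and 2 fell (11.1%), and of 24 NRF2 targets 3 rose (12.5%) and 5 fell (20.8%).

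The promoters of 3 called genes are shown with the motif that is known for their group, each being the called member with the largest change among those whose window held the motif. MCM6 was named for this reason alone. Counts cover the list members that have a promoter in the RefSeq table, so they are smaller than the list counts for some groups. The 300 bases around each gene's start in RefSeq (GRCh38.p14) were searched on both strands, and the 250 bases before the start are printed 5′ to 3′ on the gene's strand with motif copies in capitals. The motifs were the stress element ERSE (CCAAT, any 9 bases, then CCACG), the E2F site (TTTCCCGC or TTTGGCGC) and the interferon element ISRE (GAAA, any 2 bases, then GAAA), and none of them contains another.
HSPA5 chr9:125241344-125241593, minus strand: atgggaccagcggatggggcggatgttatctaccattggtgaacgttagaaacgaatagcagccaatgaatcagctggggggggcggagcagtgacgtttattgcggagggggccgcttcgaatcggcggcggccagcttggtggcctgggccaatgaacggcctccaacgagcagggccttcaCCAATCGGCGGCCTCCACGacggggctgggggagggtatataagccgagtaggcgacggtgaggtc
MCM6 chr2:135876444-135876693, minus strand: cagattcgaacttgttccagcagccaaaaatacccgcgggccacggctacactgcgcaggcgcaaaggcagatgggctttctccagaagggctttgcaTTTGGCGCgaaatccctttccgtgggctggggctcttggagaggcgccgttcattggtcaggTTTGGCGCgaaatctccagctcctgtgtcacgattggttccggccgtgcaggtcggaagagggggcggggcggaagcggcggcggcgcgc
OAS3 chr12:112938224-112938473, plus strand: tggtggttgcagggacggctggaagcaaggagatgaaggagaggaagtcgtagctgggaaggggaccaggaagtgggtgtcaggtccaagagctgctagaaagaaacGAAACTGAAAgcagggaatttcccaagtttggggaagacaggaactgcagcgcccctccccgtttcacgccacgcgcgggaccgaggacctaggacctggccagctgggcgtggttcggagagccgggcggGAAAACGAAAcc
HSPA5 held 1 exact copy of ERSE as spelled above, a rare run of letters found in 0.0806% of 27305 promoter windows. Inexact copies were not counted. Of 9 risers of the unfolded protein response 3 held it, and of the 17 other members 4 did. MCM6, a subunit of the replicative helicase, held 2 E2F copies. The site was in 2.31% of all windows, in 7 of 15 falling replication genes and in 8 of 16 others. OAS3 held 2 ISRE copies, and the element was in 3.65% of all windows, in 6 of 7 falling interferon genes and in 11 of 17 others. For mitosis genes the CHR element (TTTGAA) was in 15.4% of all windows, in 2 of 4 falling members and in 15 of 22 others. A match is only a run of letters, not a bound site.

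Of 28 proteasome genes 1 rose (3.57%, beside 4.34% of all genes) and 7 fell (25.0%, beside 8.08%). PSMB9, the inducible subunit LMP2, read 9.59, 9.42 and 9.41 on the control arrays and 7.98, 7.63 and 7.73 on the sponge arrays (change -1.70, -1.93 to -1.46, adjusted p = 5.08e-07). PSMB8, the inducible subunit LMP7, read 7.27, 7.28 and 7.31 against 6.86, 6.57 and 6.2 (change -0.74). The rising member, PSMA2 of the core particle, rose by 0.59 on 1 of 2 probe sets. Of 22 genes of antigen presentation 0 rose and 6 fell (27.3%). TAP1, a subunit of the peptide transporter, read 7.38, 7.29 and 7.30 against 6.46, 6.27 and 6.27 (change -0.99, adjusted p = 6.74e-05). HLA-DPB1, a class II chain, fell by 1.02 on 1 of 2 probe sets, and HLA probe sets can read related genes. Of 31 interferon response genes 0 rose and 9 fell (29.0%). Their median change was -0.26, with medians of -0.35, -0.33 and -0.23 on the sponge arrays. OAS3, an antiviral synthetase, read 7.95, 7.79 and 7.89 against 6.83, 6.79 and 6.86 (change -1.05, adjusted p = 9.54e-05). Only 1 of its 2 probe sets was called, and the other changed by 0.3. USP18, which limits interferon signalling, read 6.59, 6.28 and 6.43 against 5.47, 5.57 and 5.06 (change -1.06).

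Of 27 NF-kB pathway genes 1 rose (3.7%, beside 4.34% of all genes), 7 fell (25.9%, beside 8.08%) and 19 were not called. The lower count was 4 without control replicate 1 or 2. TNFAIP2 read 8.5, 8.52 and 8.40 against 7.86, 7.68 and 7.64 (change -0.75), and NFKBIZ, an inducible regulator, rose by 0.65 on both probe sets. Of 26 immediate early genes 3 rose (11.5%) and 4 fell (15.4%). EGR1 fell on 3 of 3 probe sets, from 10.42, 10.48 and 10.59 to 8.76, 8.95 and 9.03, and JUNB fell from 9.70, 9.40 and 9.57 to 8.55, 8.43 and 8.48. JUN, described with the targets, rose by 1.02, and IER3, a stress-induced gene, rose from 7.21, 7.37 and 7.41 to 8.31, 8.37 and 8.17. Of 20 feedback genes of the ERK cascade 4 rose and 1 fell. SPRY2, an inhibitor of receptor signalling, read 6.28, 6.21 and 6.0 against 7.38, 7.17 and 7.09 (change 1.05, adjusted p = 0.00163). DUSP4, an ERK phosphatase, rose by 1.04 on 1 of 3 probe sets.

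Among secreted signals 4 of 40 chemokines and cytokines rose and 4 fell, where 4.34% of all genes rose and 8.08% fell. CXCL8, the neutrophil attractant interleukin 8, read 6.48, 6.11 and 6.74 against 8.78, 8.59 and 8.66 (change 2.24, 1.93 to 2.54, adjusted p = 3.74e-07). TNFSF13B, the B cell factor BAFF, rose from 5.09, 5.30 and 5.26 to 6.75, 6.61 and 6.79. Both genes rose on both probe sets, and the brightest of CXCL8 can read related sequences. IL7, a lymphocyte growth factor, fell from 5.49, 5.41 and 5.48 to 4.44, 4.15 and 4.0, down to the lower bound on 1 array. LIF, a cytokine of the IL-6 family, fell by 0.68. Of 42 cytokine and growth factor receptors 3 rose (7.14%, beside 4.34% of all genes) and 6 fell (14.3%, beside 8.08%). IL2RG, the shared gamma chain, read 9.21, 8.91 and 9.21 against 7.49, 7.20 and 7.28 (change -1.79, adjusted p = 1.06e-06).

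Of 37 matrix genes 5 rose (13.5%, beside 4.34% of all genes) and 2 fell (5.41%, beside 8.08%), and the median change was 0.05. FN1, fibronectin, rose on 7 of 7 probe sets, from 10.43, 10.29 and 10.28 to 11.95, 11.87 and 11.85 (change 1.55, 1.35 to 1.76, adjusted p = 2.28e-07). TIMP3, a protease inhibitor held in the matrix, rose on 3 of 4, from 6.73, 6.50 and 6.43 to 8.05, 7.66 and 7.78. COL18A1, a basement membrane collagen, fell by 0.66. Of 40 integrins and adhesion genes 5 rose (12.5%) and 1 fell (2.5%), with a median of -0.02. ITGA4 rose from the bound, at 4.0, 4.0 and 4.46, to 5.26, 5.26 and 5.32, and ITGA9 fell from 8.52, 8.15 and 8.33 to 7.24, 6.91 and 7.02. Of 24 annexin and S100 genes 5 rose (20.8%) and 3 fell (12.5%). ANXA1, the annexin that restrains inflammation, read 7.34, 7.20 and 7.55 against 11.36, 11.17 and 11.10, a change of 3.85 on both probe sets. ANXA6 rose by 0.75, and ANXA11 fell by 0.68.

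Of 38 BMP, TGF-beta and ID genes 4 rose (10.5%, beside 4.34% of all genes) and 6 fell (15.8%, beside 8.08%). Beside SOSTDC1, the co-receptor gene TGFBR3 rose by 0.94 on both probe sets. ID2, an inhibitor of helix-loop-helix factors, fell from 11.18, 11.15 and 11.18 to 10.20, 9.79 and 9.85, and SMAD1, a BMP signal carrier, fell by 1.01. Of 30 Notch pathway genes 4 rose (13.3%) and 5 fell (16.7%). JAG1, a Notch ligand, rose on 4 of 6 probe sets, from 5.96, 6.08 and 6.13 to 8.36, 8.01 and 8.07 (change 2.09, adjusted p = 1.82e-07). The target genes parted, since HEY1 read 7.31, 7.45 and 7.29 against 8.18, 8.16 and 8.06 while HES1 read 9.63, 9.58 and 9.69 against 8.66, 8.68 and 8.85. Of 34 WNT genes 0 rose and 2 fell (5.88%).

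Stress and metabolic lists were mixed. The shares below stand beside 4.34% of all genes that rose and 8.08% that fell. Of 20 BCL2 family genes 2 rose and 0 fell. PMAIP1, the death inducer NOXA, read 8.27, 8.12 and 8.34 against 9.28, 9.09 and 8.87 (change 0.84), and BNIP3, a mitophagy receptor, rose by 0.73, both on 2 of 2 probe sets. Of 24 p53 targets 5 rose (20.8%), SESN2 and CDKN1A with the largest changes. The 1 that fell (4.17%) was the DNA repair gene XPC, from 8.14, 8.16 and 7.99 to 7.04, 6.96 and 6.85. Of 24 lipid synthesis genes 3 rose (12.5%) and 0 fell. SQLE, an enzyme of cholesterol synthesis, rose on 4 of 4 probe sets from 9.14, 9.09 and 9.11 to 10.41, 10.12 and 10.04. Of 28 genes of hypoxia and glycolysis 6 rose (21.4%) and 5 fell (17.9%). Glycolytic enzymes went both ways. PFKP read 9.63, 9.44 and 9.70 against 8.60, 8.45 and 8.44, on 1 of 2 probe sets, and HK1 fell by 0.73. Both genes lie in chromosome 10 windows of lower values described further on. GPI and ALDOA, chosen after their values were seen, were called higher by 0.47 and 0.37. Of 27 lysosome and autophagy genes 3 rose and 3 fell (11.1% each). Of 35 potassium channels 1 rose (2.86%), namely KCNC2, and 3 fell (8.57%), a share close to the 8.08% of all genes.

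Of 20 imprinted genes 5 rose (25.0%, beside 4.34% of all genes) and 1 fell (5.0%, beside 8.08%). MEG3, a maternally expressed non-coding RNA of chromosome 14, read 10.15, 10.51 and 10.71 against 5.68, 5.97 and 6.01 (change -4.57, -4.91 to -4.22, adjusted p = 1.06e-09), on 5 of 10 probe sets. PLAGL1, a paternally expressed growth regulator, rose on 3 of 3 probe sets from 6.23, 6.35 and 6.57 to 7.56, 7.54 and 7.54, and BLCAP rose by 0.68. Of 26 germ cell and cancer-testis genes 4 rose (15.4%) and 3 fell (11.5%). NLRP7, a maternal gene of the early embryo, went from 4.82, 4.86 and 5.0 to 9.58, 9.35 and 9.23. MAGEC2, a cancer-testis antigen, went from 4.38, 4.40 and 4.5 to 6.26, 6.14 and 6.12, on 1 of 2 probe sets. TEX19, which guards germ cells against transposons, fell from 11.95, 11.90 and 11.97 to 7.90, 7.76 and 7.74, and MAGEA1 fell by 0.54. Of 24 genes of DNA methylation and Polycomb complex 2, which silence imprinted and germ cell genes, 2 rose (8.33%) and 8 fell (33.3%). Their median change was -0.22. The lower count was 4 without control replicate 1, 3 without control replicate 3 and 5 without sponge replicate 2 or 3. UHRF1, which brings DNMT1 to replicated DNA, fell by 0.62, and DNMT3B and EED, a de novo methyltransferase and a Polycomb subunit, rose by 0.54 and 0.60. Of 24 genes of MYC and ribosome assembly 5 rose (20.8%) and 4 fell (16.7%).

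**Figure D3:**
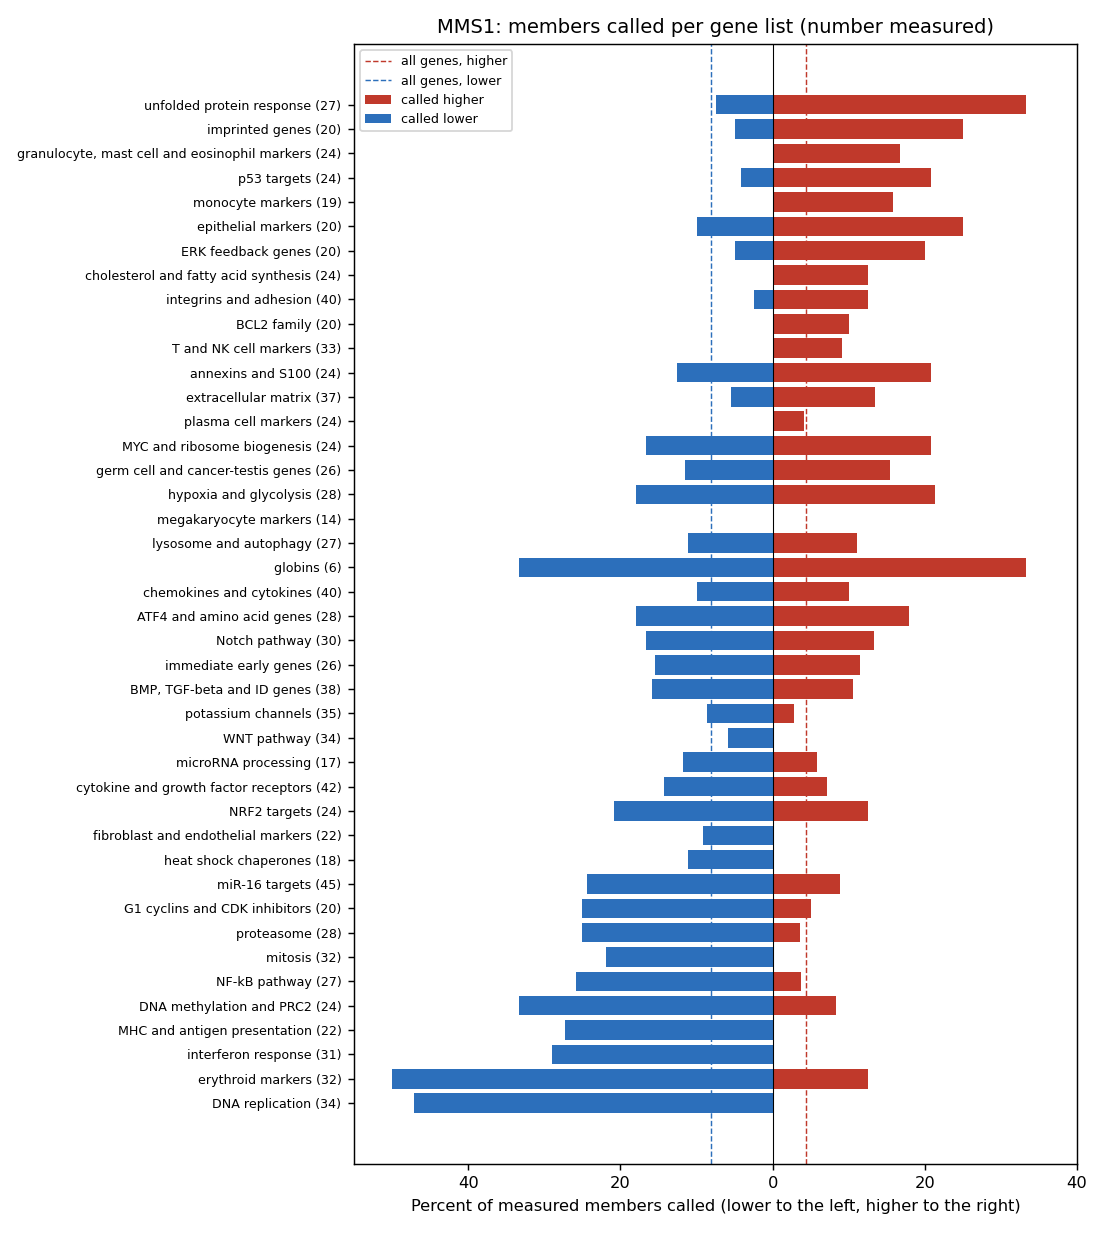
Bars give the percent of measured members of 42 gene lists called lower (blue, to the left) and higher (red, to the right) in MMS1, with the number measured in brackets and dashed lines at the shares over all genes (8.08% and 4.34%). The longest blue bars are those of erythroid markers (50.0%) and DNA replication (47.1%), and the longest red bars those of the unfolded protein response and of 6 globins (33.3% each).

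Red cell genes changed most among the lineage markers. Of 32 erythroid markers 16 fell (50.0%, beside 8.08% of all genes) and 4 rose (12.5%, beside 4.34%). The median member stood at -0.31, -0.35 and -0.47 on the sponge arrays. KLF1, a master factor of red cell genes, read 9.87, 9.69 and 9.94 against 7.88, 7.96 and 8.11 (change -1.85, adjusted p = 1.97e-07). ALAS2 read 9.96, 9.81 and 9.94 against 7.75, 7.11 and 7.32. Some members rose strongly. RHAG, of the Rh membrane complex, rose on 3 of 3 probe sets from 7.43, 7.40 and 7.46 to 10.11, 9.74 and 9.84, and CA2, a carbonic anhydrase, from 4.85, 4.63 and 5.30 to 7.25, 6.80 and 6.90. Of 6 measured globins 2 rose and 2 fell (33.3% each). The 2 not called were HBE1 of the beta cluster (change -0.21, adjusted p = 0.161) and HBM of the alpha cluster (-0.18, adjusted p = 0.399). From the beta cluster of chromosome 11, HBB rose from 8.58, 8.89 and 8.82 to 11.69, 11.64 and 11.68 and HBD from 7.38, 7.30 and 7.26 to 8.81, 8.64 and 8.68. Their probe sets can read each other's transcripts. From the alpha cluster of chromosome 16, HBZ, the embryonic zeta chain, fell from 14.13, 14.02 and 14.07 to 12.05, 12.16 and 12.20, and HBQ1 fell by 0.98. Summed over the measured globins, the linear signal was 38900 to 40400 on the control arrays and 26100 to 27700 on the sponge arrays. Without HBZ it was 22300 to 22500 and 21800 to 23000. HBA1, HBA2, HBG1 and HBG2 had no probe set that named 1 of them alone, so these sums leave out the alpha and gamma chains. HBE1 read close to the highest signal of the control arrays, which was 14.63, 14.71 and 14.6.

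Markers of other lineages rose in small numbers. Of 33 T and NK cell markers 3 rose (9.09%, beside 4.34% of all genes) and 0 fell (beside 8.08%). Their summed linear signal went from between 2840 and 3130 to between 8070 and 9260. That sum was carried by CD3D, without which it lay between 2730 and 3020 on the control arrays and 2890 and 3150 on the sponge arrays, and the list's median change was 0.06. CD3D stood alone in its complex. CD3E read 5.69, 5.89 and 5.68 against 6.44, 5.92 and 5.87 (adjusted p = 0.331), and CD3G 4.95, 5.05 and 4.69 against 5.41, 4.14 and 4.93 (adjusted p = 0.915). CD7 rose by 0.84. Of 24 granulocyte, mast cell and eosinophil markers 4 rose (16.7%) and 0 fell. PRG2, the major basic protein of eosinophils, rose from 5.90, 5.8 and 5.98 to 9.95, 9.81 and 9.84, and LTF, lactoferrin, from 5.83, 5.96 and 5.96 to 8.65, 8.29 and 7.98, while EPX, the eosinophil peroxidase, read 5.66, 5.64 and 5.58 against 5.51, 5.95 and 5.83. Of 19 monocyte markers 3 rose (15.8%) and 0 fell. FCGR2A, an Fc receptor, rose from 5.43, 5.39 and 5.25 to 7.45, 7.46 and 7.39 on 1 of 2 probe sets. VCAN, versican, rose by 0.97 on 4 of 5. Of 20 epithelial markers 5 rose and 2 fell. KRT8 read 9.31, 9.26 and 9.33 against 11.99, 11.93 and 11.78, its partner KRT18 read 11.37, 11.26 and 11.41 against 12.40, 12.50 and 12.46, and TJP1, of tight junctions, fell by 0.51. Of 24 plasma cell markers 1 rose (4.17%), the signal peptidase subunit SEC11C (change 0.71), and 0 fell. SEC11C was called on 1 of 2 probe sets, and the other changed by -0.02. Of 22 fibroblast and endothelial markers 0 rose and 2 fell (9.09%), and of 14 megakaryocyte markers none was called. In no list were the called markers more than a minority of those measured, apart from the erythroid markers and globins.

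Changes were also set out along the chromosomes, a description chosen with the values in view and given without a test. In 305 windows of 40 neighbouring genes with a mean log2 signal above 6, ordered by the RefSeq table, 20 had a median change of -0.20 or less and 3 of 0.20 or more. In RPMI8226 3 windows passed either way, and all its windows lay between -0.22 and 0.07. The 20 lower windows held 800 genes, of which 33.8% fell and 2.5% rose, beside 10.2% and 5.89% of the 11268 genes outside all the windows picked. Since windows were picked on these changes, the shares only describe them. The lowest was on chromosome 16 from RNPS1 to SLX4, with a median of -0.41 and 19 of 40 genes lower. It lies in a run of 4 windows from POLR3K to LOC400499 (medians -0.23, -0.28, -0.41 and -0.27) that also holds HBZ and HBQ1. On chromosome 3, 3 windows up to SCN10A had medians of -0.22, -0.28 and -0.34. The others were 6 windows on chromosome 2, 5 on chromosome 10, and 1 each on chromosomes 1 and 6. The window on chromosome 6, from ATF6B to LEMD2, holds PSMB8, PSMB9 and TAP1.

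On chromosome 7, 3 neighbouring windows from EIF2AK1 to NUDCD3 were higher, with medians of 0.29, 0.20 and 0.21 and 16, 14 and 12 of 40 genes called higher. They hold ANLN, GARS1, PSMA2 and SOSTDC1. All 3 sponge arrays showed each shift. The windows were picked on changes of these same arrays. That choice partly set this agreement and the order of the MMS1 groups given below. Over the 20 lower windows the array medians lay between -0.34 and -0.12, between -0.39 and -0.14 and between -0.42 and -0.17, and over the 3 higher ones between 0.12 and 0.39. Each control array lay within 0.09 of the other controls in all 23 windows. Set against the mean of all 12 arrays, the MMS1 controls were the group apart on chromosome 7, at -0.28 to -0.21, with the MMS1 sponge arrays at 0.00 to 0.03. In the lower windows the MMS1 sponge arrays were the lowest of the 4 groups in 20 of 20, with a median of -0.17, and the MMS1 controls were the highest in 10, with a median of 0.06. In the lowest window, from RNPS1 to SLX4, the controls stood as far from the mean as the sponge arrays, at 0.18 and -0.19, with the RPMI8226 groups at 0.01 and 0.04.

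**Figure D4:**
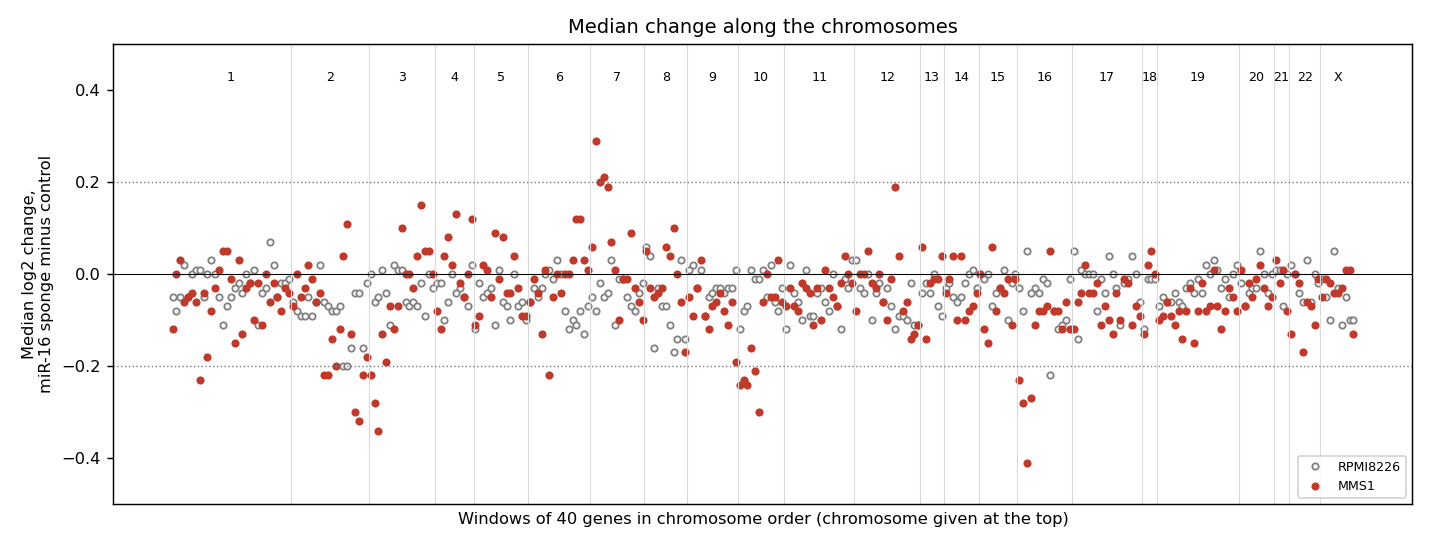
Each point is the median log2 change (sponge minus control) of a window of 40 neighbouring genes in chromosome order, filled for MMS1 and open for RPMI8226, with dotted lines at -0.2 and 0.2. MMS1 windows form runs below -0.2 on chromosomes 2, 3, 10 and 16 and a run at or above 0.2 on chromosome 7. The RPMI8226 medians lie between -0.16 and 0.05 in the 20 windows at or below -0.2 in MMS1. They lie between -0.08 and -0.02 in the chromosome 7 run.

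In MMS1, 12 genes crossed from the lower bound or to it, chosen after their values were seen as those changed by over 1 with one group below 4.5 on all its arrays. Below 4.5 on each control array and higher with the sponge were CSDC2, DHH, ITGA4, KCNC2, SOSTDC1, TFPI2 and ZNF491. CSDC2, an RNA-binding cold shock protein, went from 4.11, 4.44 and 4.04 to 8.35, 8.07 and 7.96, and DHH, a hedgehog ligand, from 4.38, 4.37 and 4.43 to 5.74, 5.77 and 5.50. FFAR1, FILNC1, IL7, SNORD114-3 and SYP went the other way. SNORD114-3, a small nucleolar RNA gene of the imprinted region that holds MEG3, read 5.22, 5.39 and 5.31 against 4.0, 4.0 and 4.38. Signals this close to the bound do not measure a fold.

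The same sponge in RPMI8226 was followed by few of these changes. There 43 genes were called, or 0.217%, and 2829 at an unadjusted p under 0.05. The difference between the lines' changes was tested itself and passed in 1167 genes, or 5.9%, among them 982 of the 2455 called in MMS1. Of the 309 genes changed by over 1 in MMS1, 288 differed between the lines, 7 were called the same way in RPMI8226 and 7 the opposite way. KCNC2 changed by 0.34 there (difference 5.43, adjusted p = 2.56e-09) and HSPA5 by -0.08 (difference 1.28, adjusted p = 0.000445). In both lines 13 genes were called the same way and 10 the opposite way. HBB rose in both, by 2.91 in MMS1 and 3.16 in RPMI8226, and the difference did not pass (adjusted p = 0.375). GASK1B, a Golgi protein chosen after its values were seen, fell by 0.83 and 0.84. TEX19 went opposite ways, -4.13 in MMS1 and 1.75 in RPMI8226 (difference -5.88, adjusted p = 4.88e-11). ANXA1, CALB1, IGFBP2, SQLE and CXCL8 rose in MMS1 and fell in RPMI8226, by 0.83, 1.07, 0.81, 0.60 and 0.86 there. Of the called miR-16 targets, the change differed for ANLN, JUN, SERPINE2, IGF1R, ETS1 and PURA, and the difference was not called for the other 9. For UNG the changes were -0.42 and -0.43.

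**Figure D5:**
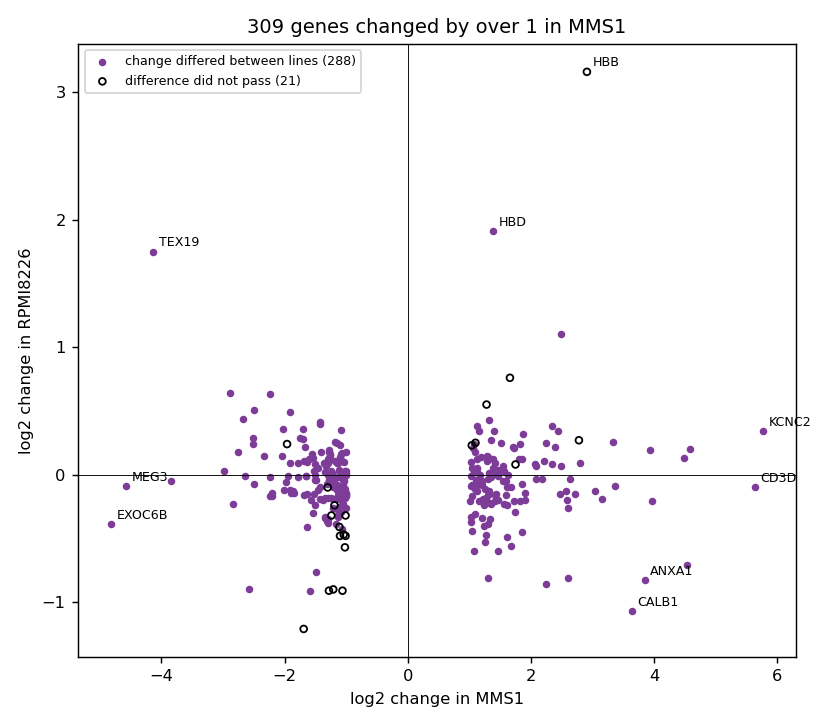
Each point is 1 of 309 genes called in MMS1 with a change of over 1, with its log2 change in MMS1 on the x axis and in RPMI8226 on the y axis. Filled points are the 288 whose changes differed between the lines, most of them near 0 in RPMI8226, while HBB (2.91 and 3.16) lies high in both and TEX19 (-4.13 and 1.75) goes opposite ways.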

How the data were processed

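The deposited values were log2 signals of Affymetrix probe sets, made by the authors, with a lower bound of 4. The summarisation and scaling were not given in the sources used here. Per the labels' protocols, 15 µg of RNA was amplified in 2 rounds and labelled with biotin. Of 54675 probe sets, 62 control probe sets were left out, and 54613 were tested. Of these, 41091 named 1 gene, 1801 several and 11721 none. The brightest single-gene probe set over the 12 arrays stood for each of 19775 genes. Where the text gives no count of called probe sets, the gene's other probe sets may not have been called. No further normalization was applied.

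All 12 arrays entered 1 fit of 4 group means in limma 3.58.1 (R 4.3.3), with moderated two-sided tests, Benjamini-Hochberg adjustment and calls at an adjusted p under 0.05. Intervals are 95% intervals of the change. Python 3.11.15 was used for tables (pandas 2.3.3 with numpy 2.4.6) and for plots (matplotlib 3.10.9). The fit was tested on simulated data. Precision is limited by how many arrays there are.

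The text names the 20 largest rises and falls among called genes with separate groups, up to 2 called members each way of the gene lists, any lineage marker, and every called miR-16 target with BCL2, CCND1, CCNE1, MCL1 and the host genes. List members outside the targets whose call was lost without 1 array were counted but mostly not named. Members and lists were chosen with earlier results of these data known, and lists have no test. Residuals of same-numbered MMS1 arrays correlated at -0.04, 0.02 and -0.04, so the replicate numbers were not taken as pairs. Alternatives were 12 fits without 1 array each and 7 other settings.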

Additional observations from a re-analysis of the deposited data

Results flagged for a closer look

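For 101 named genes the change in MMS1 differed from that in RPMI8226, by limma's test of the difference itself with Benjamini-Hochberg adjustment over all probe sets. Each value is the MMS1 change minus the RPMI8226 change on the log2 scale. Higher in MMS1, the difference was 5.43 for KCNC2, 5.74 for CD3D, 4.38 for MUC19, 5.24 for SOSTDC1, 4.37 for NLRP7, 4.18 for PRG2, 3.74 for CSDC2 and 4.68 for ANXA1. It came to 4.71 for CALB1, 3.45 for PRDM11, 3.07 for ZNF491, 3.33 for USP22, 3.17 for ALDH1A1, 2.70 for CD24, 2.86 for TSPAN13 and 2.66 for LOC105371622. Next to these it was 3.41 for IGFBP2, 2.86 for KRT8, 1.17 for ANLN, 0.92 for JUN, 1.07 for SERPINE2, 0.65 for CDKN1A, 1.28 for HSPA5 and 0.81 for SESN2. A difference above 0 was also found at 0.62 for GARS1, 0.75 for PSMA2, 0.89 for IER3, 1.22 for SPRY2, 0.99 for DUSP4, 0.64 for NFKBIZ, 3.10 for CXCL8 and 1.47 for TNFSF13B. The value was 1.26 for ITGA4, 1.60 for FN1, 1.46 for TIMP3, 0.95 for TGFBR3, 2.12 for JAG1, 0.95 for HEY1, 0.93 for PMAIP1 and 0.79 for BNIP3. Higher in MMS1, the difference was 1.68 for SQLE, 1.16 for MSMO1, 1.38 for PLAGL1, 0.82 for BLCAP, 2.04 for MAGEC2, 0.72 for EED, 2.62 for RHAG and 1.97 for CA2. It came to 0.87 for SEC11C, 0.72 for CD7, 2.17 for LTF, 2.00 for FCGR2A and 1.21 for KRT18.

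Below 0, the difference was -4.43 for EXOC6B, -4.48 for MEG3, -5.88 for TEX19, -3.80 for MFNG, -3.01 for FYB1, -3.53 for RAP1A, -2.61 for KIR2DS5 and -2.93 for PLA2G2A. It reached -3.12 for CHMP6, -2.63 for MEIOC, -1.68 for ACSM3, -2.80 for ALAS2, -2.74 for CA1, -2.43 for PKLR, -3.00 for LINC00462 and -2.49 for DNAJC15. The change was lower in MMS1 by a difference of -2.22 for SNHG24, -2.86 for NSG1, -2.06 for IGF1R, -2.03 for TEX11, -1.17 for ETS1, -0.65 for PURA, -0.77 for MOV10 and -1.05 for TK1. Negative differences were also -0.91 for CDC45, -0.55 for CDK4, -1.45 for ATF5, -2.05 for PSMB9, -1.17 for USP18, -1.01 for OAS3, -1.05 for HLA-DPB1 and -1.34 for TAP1. The value came to -0.64 for JUNB, -0.73 for TNFAIP2, -1.41 for IL7, -1.77 for IL2RG, -1.41 for ITGA9, -0.61 for COL18A1, -0.67 for ANXA11 and -1.15 for ID2. Below 0, the difference was -0.86 for SMAD1, -0.98 for HES1, -1.03 for XPC, -0.80 for PFKP, -0.51 for HK1, -0.52 for HBD, -1.92 for HBZ and -1.07 for HBQ1.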

How the results depend on the processing

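No named change and no picked window reversed while called under the alternatives run. Of 138 called named genes, 116 kept their call against 0 in all settings and 22 lost it in some. Fitting the MMS1 arrays alone called 536 genes higher and 1018 lower, with 7 targets, 4 NF-kB and 4 DNA methylation genes lower. Testing against a change of 0.5 called 139 higher and 160 lower. The genes whose change differs between the lines then numbered 186, against 1167. It left 2 targets, 2 replication, 0 mitosis, 1 proteasome, 3 interferon, 0 NF-kB, 0 DNA methylation and 8 erythroid genes lower and 1 unfolded protein response gene higher. Brighter probe sets gave 2026 genes and trended robust variances 2120 that differed, and each gave 11 mitosis genes. The mean over probe sets gave 4 DNA methylation genes. Leaving out 1 array gave 565 to 831 higher, 1009 to 1818 lower and 784 to 1177 that differed. The lower members then numbered 7 to 12 (targets), 13 to 21 (replication), 4 to 11 (mitosis), 5 to 7 (proteasome), 8 to 10 (interferon), 4 to 7 (NF-kB), 3 to 10 (DNA methylation) and 14 to 17 (erythroid), and 6 to 10 unfolded protein response genes were higher. Of called genes 34.9% were higher, 41.4% after quantile normalization and 26.2% without sponge replicate 1. The replicate block called 726 higher and 1355 lower, of which 712 and 1332 were shared with the fit without it. It also ended the call of INSR. Other settings of 19 moved these counts by less than 1.5 times, and 49 of 230 window values moved. The causes were not tested. Signals near the lower bound of 4 limit the folds of dim genes.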
